A study of Mus musculus with 2 samples.

Results

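The small heat shock proteins and the muscle chaperones of the BAG and UNC-45 families were examined as a set of 10 genes, of 43346 mouse genes in the tables. They were chosen by symbol (Cryab, Hspb1, Hspb2, Hspb3, Hspb6, Hspb7, Hspb8, Bag3, Unc45a and Unc45b), and each symbol matched 1 row in either library. The data were total RNA sequencing of embryonic hearts of B6NCrl mice at 11.5 days, untreated as far as the labels say, pooled over both sexes, in 2 libraries labelled replicate 1 (a pool of 109 embryos) and replicate 2 (number of embryos not given here). Both carry the same donor identifier but are recorded as separate biosamples and labelled as biological replicates. They are treated below as 2 pools, which the shared identifier leaves unproven. The SD below measures the spread between the 2 libraries. There is 1 group, and the comparisons are therefore between genes and between the pools.

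Small heat shock proteins share a conserved alpha-crystallin domain, assemble into oligomers and hold unfolding proteins without using ATP. In striated muscle they bind actin, desmin, titin and filamin, and several are known mainly from heart and skeletal muscle. Bag3 is a co-chaperone that joins Hspb8 to HSP70 and passes damaged filament proteins to autophagy, while the UNC-45 proteins fold the motor domain of myosin together with HSP90. In that family, Unc45b is the striated muscle form and Unc45a the general form.

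Levels are given in TPM, a measure of transcript abundance corrected for gene length and scaled to 1 fixed sum per library, so that genes can be compared. All 10 genes reached 1 TPM in each library, as did 56.4% of 21474 protein-coding genes. Their median was 87.8 ± 5.44 TPM (SD, n = 2), against 7.65 ± 0.113 over the 16941 protein-coding genes with a count. The levels spanned from 8.56 to 607 TPM, with 5 genes above 100 TPM in each library. Summed over the 10 genes, the level was 1718 TPM in replicate 1 and 1657 in replicate 2. In bulk tissue, fewer cells of a type and less RNA per cell cannot be told apart, so these levels are averages over all cells of the heart.

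Promoter sequences are shown for 4 of the genes. These are Hspb1 (highest), Hspb7 (most different between the pools), Hspb3 (a muscle member of intermediate level) and Hspb6 (lowest by mean level). Each run holds bases before a RefSeq transcription start on GRCm38.p6 (the assembly of mm10), 5′ to 3′ on the strand of the gene. Capitals mark matches to the heat shock element core GAANNTTC, the TATA box TATAAA or the MEF2 site. The first 3 are whole windows of 250 bases. The Hspb6 run is the first 217 bases of such a window, since the leading Hspb6 transcript in GENCODE begins at 30553268, inside it, and the RefSeq start is at 30553301.
Hspb1, chr5:135887669-135887918, plus strand: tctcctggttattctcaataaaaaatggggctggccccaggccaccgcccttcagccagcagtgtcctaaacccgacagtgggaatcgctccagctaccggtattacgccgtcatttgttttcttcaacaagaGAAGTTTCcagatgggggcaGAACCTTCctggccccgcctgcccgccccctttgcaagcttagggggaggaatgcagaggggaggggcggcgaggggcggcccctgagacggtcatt
Hspb7, chr4:141420529-141420778, plus strand: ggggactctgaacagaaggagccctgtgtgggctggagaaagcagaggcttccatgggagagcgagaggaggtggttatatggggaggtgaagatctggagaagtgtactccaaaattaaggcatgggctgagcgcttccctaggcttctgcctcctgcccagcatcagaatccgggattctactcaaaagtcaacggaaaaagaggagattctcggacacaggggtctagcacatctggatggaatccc
Hspb3, chr13:113663677-113663926, minus strand: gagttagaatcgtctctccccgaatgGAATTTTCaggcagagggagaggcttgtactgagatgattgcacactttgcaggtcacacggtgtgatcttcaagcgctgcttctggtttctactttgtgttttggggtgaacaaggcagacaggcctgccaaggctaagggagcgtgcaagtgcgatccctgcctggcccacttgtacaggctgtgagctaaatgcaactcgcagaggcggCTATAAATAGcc
Hspb6, chr7:30553051-30553267, plus strand: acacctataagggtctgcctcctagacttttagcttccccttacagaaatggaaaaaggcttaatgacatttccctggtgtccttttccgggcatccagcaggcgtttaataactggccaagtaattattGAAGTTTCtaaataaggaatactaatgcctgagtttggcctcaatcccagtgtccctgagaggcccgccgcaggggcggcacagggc

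Windows were found for 8 of the 10 genes, 9 windows in all, with Cryab and Hspb2 unmatched. The heat shock element core, the paired binding unit of heat shock factors, was found on either strand in 3 of these 8 genes. It stood at 2 places in Hspb1, from 117 to 110 and from 97 to 90 bases before the start, at 1 place in Hspb3 (224 to 217) and at 1 in Hspb6 (120 to 113). Over all 32851 promoter windows of this length, 6.69% hold the core. The extended element, which is the core followed after any 2 bases by a further GAA, was in none of the 8 genes and in 0.466% of all windows. TATAAA was found in Hspb3 (11 to 6 bases before the start) and in Hspb6 (29 to 24), and in 12.4% of all windows. The Hspb6 match lies beyond the run shown, before the RefSeq start but after the GENCODE start of the leading transcript. Of the muscle factor sites, a MEF2 site was found only in Hspb3, where it spans 12 to 3 bases before the start and contains the TATA box, against 0.508% of all windows. The serum response factor site (CArG box), in 1.47% of all windows, was in none. The Hspb7 window held none of the motifs searched. These are letter matches, and no binding was measured here.

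**Figure D1:**
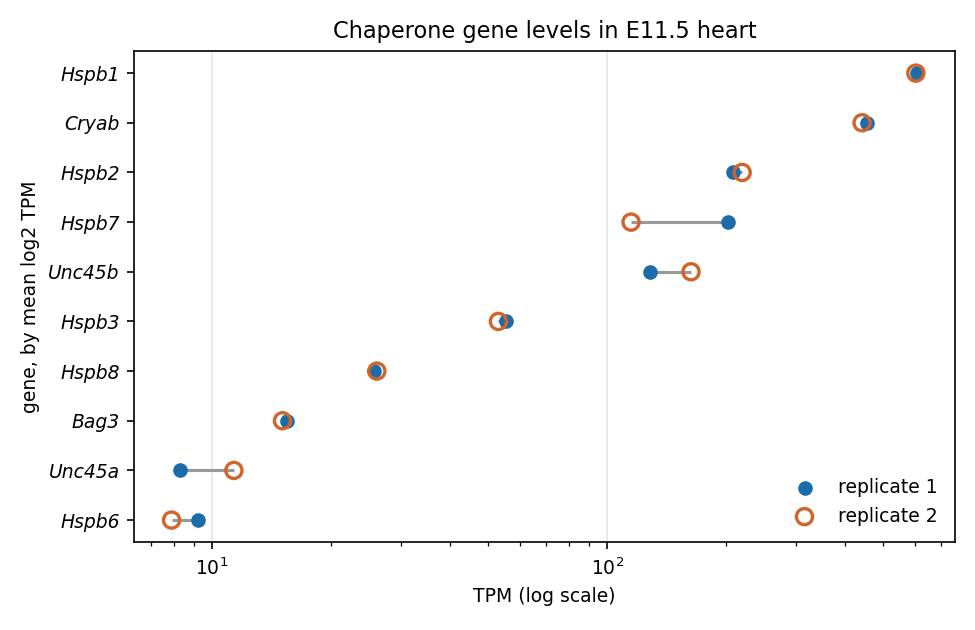
TPM of the 10 genes (log axis) in replicate 1 (filled) and replicate 2 (open), ordered by mean log2 TPM, with a grey line joining the libraries. The levels run from Hspb1 at 610 and 604 TPM to Hspb6 at 9.22 and 7.90, and the widest gap between libraries is that of Hspb7 (202 and 115).

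Among the small heat shock genes, Hspb1 and Cryab carried most of the transcript. Hspb1 (Hsp27, which binds actin and protects it under stress; chromosome 5, 135887919 to 135889563) had 610 TPM in replicate 1 and 604 in replicate 2. That placed it at rank 171 of the protein-coding genes with a count. Cryab (alphaB-crystallin, the chaperone of desmin; chromosome 9, 50751325 to 50756636) had 456 and 442 TPM and ranked 240. Together they led the set, Hspb1 holding 35.98% ± 0.681 and Cryab 26.6% ± 0.097 of its summed TPM. Hspb1 was 1.35-fold above Cryab, and their libraries did not overlap.

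Hspb2 (a binder of the myotonic dystrophy kinase; chromosome 9, 50751078 to 50752354) followed, at 208 TPM in replicate 1 and 220 in replicate 2. It lies head to head with Cryab, with 613 bases between the starts of the transcripts that the tables list for these genes (Hspb2-201 and Cryab-201). Cryab exceeded its neighbour in both libraries, 2.19-fold in replicate 1 and 2.01-fold in replicate 2 (log2 ratio of TPM 1.07 ± 0.086). By gene start and end, introns included, the later GENCODE M21 annotation extends Cryab across 1030 bases of Hspb2 on the opposite strand. How much of that span is exon was not computed. The strand setting of the counting is not given in the sources used here. Any reads of such longer Cryab transcripts that fall in Hspb2 exons could therefore not be told from those of Hspb2.

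The other small heat shock genes lay lower. Hspb7, known as the cardiovascular small heat shock protein and needed for heart development in the mouse (chromosome 4, 141420779 to 141425311), had 202 TPM in replicate 1 and 115 in replicate 2. Hspb3, a partner of Hspb2 in muscle (chromosome 13, 113662896 to 113663676), had 55.3 and 53.1. The ratio of Hspb7 to Hspb3 was 3.65-fold in replicate 1 and 2.17-fold in replicate 2, so its size depended on the library (log2 ratio 1.49 ± 0.533). Hspb8, the client-binding partner of Bag3 (chromosome 5, 116408491 to 116422864), had 25.7 and 26.1 TPM.

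Hspb6 (Hsp20, a phosphoprotein of cardiac and smooth muscle, on chromosome 7, 30552178 to 30555443) had 9.22 and 7.90 TPM, from 331 and 208 counts. By mean level it was the lowest of the set, though Unc45a was lower in replicate 1 (8.31 TPM). Hspb6 stood 71.1-fold below Hspb1 (log2 ratio -6.15 ± 0.148), the widest gap in the set. Its level put it at percentile 51.8 of the protein-coding genes with a count, near the middle, whereas Hspb1 was at 99.0 and Cryab at 98.6.

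Of the co-chaperones, Bag3 (chromosome 7, 128523616 to 128546981) had 15.5 TPM in replicate 1 and 15.1 in replicate 2. It lay 1.69-fold below its partner Hspb8, with the same order in both libraries (log2 ratio of Bag3 to Hspb8 -0.76 ± 0.047). That difference rests largely on the length correction, since the log2 ratio of the expected counts was -0.22. Both genes sat well below the oligomer-forming Hspb1 and Cryab.

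The myosin chaperones differed by form. Unc45b (chromosome 11, 82910550 to 82943403) had 128 TPM in replicate 1 and 163 in replicate 2, and Unc45a (chromosome 7, 80325292 to 80341005) had 8.31 and 11.4. The striated muscle form was 15.4-fold above the general form in replicate 1 and 14.4-fold in replicate 2 (log2 ratio 3.89 ± 0.073). Both were higher in replicate 2, and their ratio varied less than either level.

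In the order of levels, neighbours were called apart when their libraries did not overlap and the difference of mean log2 TPM exceeded the sum of the SDs. Of 9 neighbouring pairs, 6 were apart. The exceptions were Hspb2 and Hspb7 (1.40-fold), Hspb7 and Unc45b (1.05-fold, values overlapping) and Unc45a and Hspb6 (1.14-fold, values overlapping). Hspb7 and Unc45b exchanged places between the libraries, as did Unc45a and Hspb6: Hspb7 and Hspb6 stood above them in replicate 1 and below in replicate 2. With 2 values a gene, an exact permutation test cannot go below p = 0.33, so none is given.

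The pools were next compared gene by gene. Replicate 1 held 37617442 expected counts and replicate 2 held 27642765, and the least counted of the 10 genes, Hspb6, had 539 over both. For each gene an exact two-sided binomial test was made, with library sizes scaled by TMM in edgeR and adjustment by Benjamini-Hochberg over 16621 genes. It compares these 2 libraries and covers counting error only. None of the 10 genes passed an adjusted p of 0.05 with a 2-fold difference, while 4.69% of all genes tested did. Among the 10246 genes with at least as many counts as Hspb6, that share was 0.264%. At any fold, 5 of the 10 had an adjusted p under 0.05 (and 5 at an unadjusted p under 0.05), against 39.6% of all genes. Deeply counted genes pass this test at smaller differences. The shares of all genes at any fold, here and below, are therefore not matched for depth.

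Of these 5, Hspb7, Cryab and Hspb1 were higher in replicate 1 (18.4% of all genes were so) and Unc45b and Unc45a were higher in replicate 2 (21.2% of all genes). The differences of Cryab and Hspb1 were small, at log2 0.09 and 0.06. In all, 6 of the 10 genes lay within 1.1-fold between the pools: Hspb1, Cryab, Hspb2, Hspb3, Hspb8 and Bag3. That share is near the 53% of genes with at least as many counts as Hspb6 (39.7% of all genes tested). The median absolute log2 difference of the 10 was 0.10, against 0.127 over the genes with at least as many counts as Hspb6 and 0.187 over all genes tested.

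Hspb7 stood apart from the rest of the set. It had 15403 counts in replicate 1 and 6182 in replicate 2 and, after scaling of the libraries, a 1.82-fold difference (log2 0.86, 95% counting interval 0.82 to 0.91). Among 1100 genes with at least 10000 counts in sum, a threshold chosen after the values were seen, 7 differed this much or more (0.636%), Hspb7 included. Of these, 5 were higher in replicate 1, and the other 4 were not annotated as protein-coding: Malat1 (log2 0.87) and Xist (0.88), both nuclear RNAs, Gm37376 (0.89), a transcript still to be experimentally verified, and the pseudogene Gm10925 (1.44). The protein-coding genes Laptm4a (-1.05) and Rcn1 (-0.93) were higher in replicate 2. The part of any property shared with these RNAs was not tested.

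**Figure D2:**
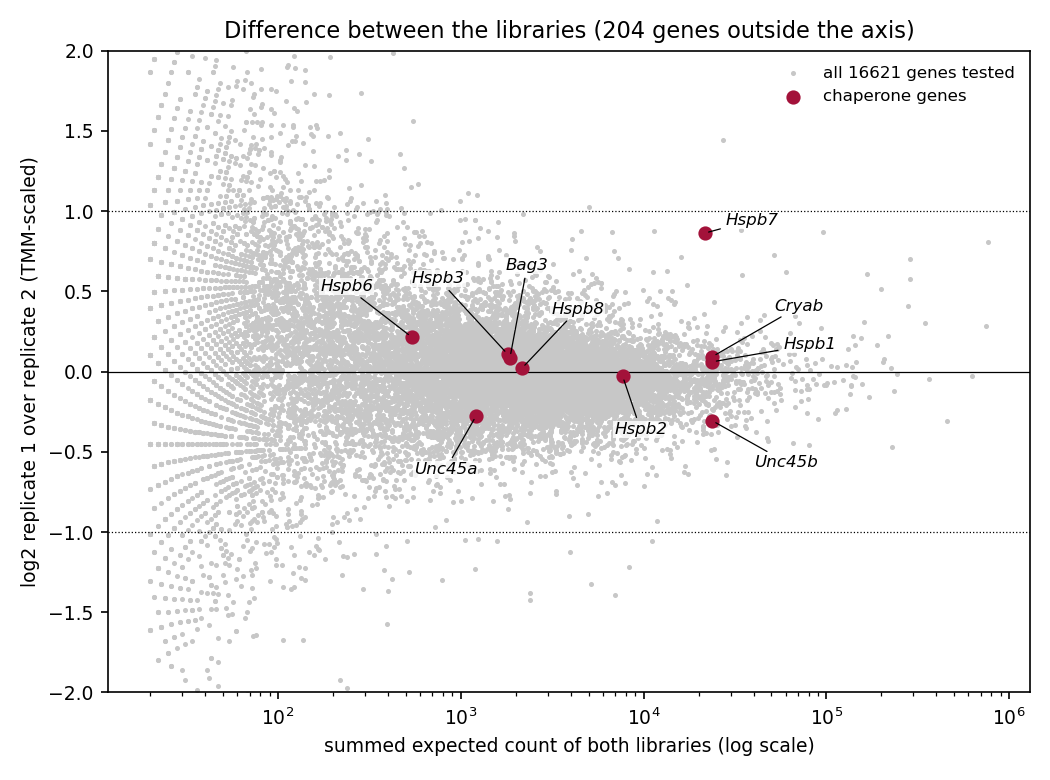
Log2 ratio of replicate 1 to replicate 2 after TMM scaling against the summed expected count (log axis) for 16621 genes (grey) and the 10 chaperone genes (red); dotted lines mark 2-fold, and 204 genes lie outside the axis. Hspb7 at 0.86 is far from the other deeply counted genes of the set, Cryab (0.09), Hspb1 (0.06) and Unc45b (-0.31).

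Unc45b went the other way, with 12484 and 11262 counts, 1.24-fold higher in replicate 2 after scaling (log2 -0.31, interval -0.34 to -0.27, adjusted p = 2e-57 in the exact binomial test). Of the 1100 deeply counted genes, 10.0% differed as much, so its size was less unusual than that of Hspb7. Of its clients, the sarcomeric myosin genes Myh7 (log2 -0.31) and Myh6 (-0.47) were also higher in replicate 2. Embryonic Myh3, at under 1 TPM, was at 0.40 with an adjusted p of 0.29 in the exact binomial test. Nonmuscle Myh10 (-0.28) and the filamin Flna (-0.56) shifted as Myh7 did, while sarcomeric Ttn (0.58) was higher in replicate 1. Of the 11 structural clients, 3 were higher in replicate 1 and 6 in replicate 2 at an adjusted p under 0.05 in that test. Over all genes tested, which are not matched to the clients for depth, these shares were 18.4% and 21.2%. Other partners of Unc45b were higher in replicate 1, Smyd1 by log2 0.31 and Hsp90aa1 by 0.22. Of the 10 genes of the HSP90 and myosin-folding list, 4 were higher in replicate 1 at an adjusted p under 0.05 (18.4% of all genes). In replicate 2, 2 were higher at that level (21.2% of all genes). Unc45a differed by log2 -0.28 (interval -0.44 to -0.11, adjusted p = 0.0036). With 2 libraries, no relation between a chaperone and its clients can be tested.

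The cell makeup of the pools was read from marker genes. All 10 cardiomyocyte markers were detected, with a median log2 difference of -0.03 (range -0.47 for Myh6 to 0.45 for Ryr2) and a summed level of 28500 TPM in replicate 1 and 30500 in replicate 2. Liver markers, in contrast, were higher in replicate 1 by a median of log2 2.23, with 5 of 6 called (3.32% of all genes were called in that direction) and a summed level of 250 TPM against 69.3. Red blood cell markers had a median difference of 0.29, with 6 of 7 higher in replicate 1. Each of the 6 had an adjusted p under 0.05 (18.4% of all genes in that direction, not matched for depth). At high counts small differences pass, as for the cardiomyocyte marker Tnnt2 at log2 0.06 (adjusted p = 6e-13 in the exact binomial test). Endothelial markers were all higher in replicate 2, 5 of 5, with a median of -0.16 (-0.53 for Kdr to -0.09). Of them, 4 had an adjusted p under 0.05 (21.2% of all genes in that direction). Their summed level was 248 and 293 TPM. The part of these cells in the differences of Hspb7, Unc45b and Unc45a was not tested. Markers of other muscle were read in the same way. All 5 smooth muscle markers were detected, at a median level of 178 ± 23.6 TPM and a summed level of 1601 and 1773, led by Acta2 (1177 and 1290), which the embryonic heart muscle also expresses. Tagln had 212 and 234 TPM, Cnn1 161 and 195, and Myh11, the smooth muscle myosin, 1.3 and 1.0. Of the skeletal muscle markers, 6 of 10 were detected, at a median level of 3.28 ± 0.297 TPM and a summed level of 468 and 495, of which Acta1, an actin that the embryonic heart also expresses, made 409 and 429. Tnni2 had 32.2 and 37.1 TPM, Tnnt3 11.8 and 12.1, Ckm 6.67 and 8.12, and Myog 2.74 and 3.09. Myod1 had 1.14 and 0.65 TPM and Pax7 had 6 counts in each library. Whether smooth or skeletal muscle cells were present, and any part of them in the levels of the muscle chaperones, was not tested. Of the lens markers, taken because alpha-crystallins are abundant there, 0 of 5 were detected. Cryaa, the lens partner of Cryab, had 0 counts in both libraries, where 3 counts would be 0.0871 and 0.119 CPM of the mouse gene counts.

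Transcript models were compared next. In the tables, 5 of the genes have 1 transcript (Cryab, Hspb2, Hspb3, Hspb7 and Bag3), and 5 have several. The leading transcript held over 50% of TPM in both libraries for all 10 genes. It held nearly all of Hspb1 (Hspb1-201, 99.9% in replicate 1 and all counted reads in replicate 2), all counted reads of Hspb8 (Hspb8-201) and 97.9% ± 0.891 of Unc45b (Unc45b-201, 20 exons).

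The lowest genes were the most divided. Of Hspb6, the protein-coding Hspb6-201 held 63.5% of TPM in replicate 1 and 75.9% in replicate 2. The noncoding Hspb6-202, which begins upstream (at 30552524, against 30553268 for Hspb6-201), held 33.9% and 15.6%, from 107 and 29.8 estimated counts. The protein-coding level of Hspb6 was therefore 5.86 and 6.0 TPM, closer between the libraries than the whole gene (9.22 and 7.90). The heat shock element core of Hspb6 lies before the start of Hspb6-201, and the RefSeq window of the upstream start holds none of the motifs searched.

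Of Unc45a, the full-length Unc45a-201 (20 exons) held 73.0% and 72.2% of TPM, and the short Unc45a-203 (350 bases) held 10.1% and 17.7% from 6.01 and 10.2 counts. A transcript subject to nonsense-mediated decay, Unc45a-208, was listed at 6.43% in replicate 1 and 0 in replicate 2, but had 10.2% and 5.42% by posterior means. By the same measure, the share of Unc45a-201 was 60.98% ± 1.76. The level of the whole gene was 9.84 TPM as deposited and 10.4 with posterior means.

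**Figure D3:**
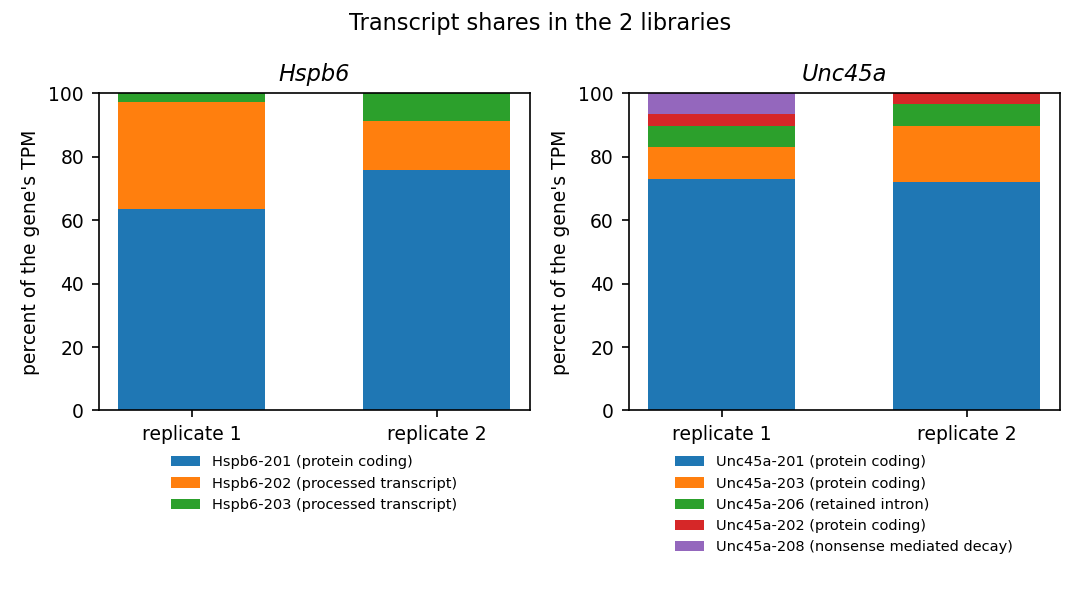
Percent of the TPM of Hspb6 (left) and Unc45a (right) in each transcript, stacked to 100, in replicate 1 and replicate 2. Hspb6-201 holds 63.5% in replicate 1 and 75.9% in replicate 2, and Hspb6-202 holds 33.9% and 15.6%, while Unc45a-201 holds 73.0% and 72.2%.

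The 7 small heat shock proteins were compared by sequence, from the coding regions of their leading transcripts in GENCODE M21. They are 154 (Hspb3) to 209 (Hspb1) residues long. Identity, in percent of the shorter protein in a global alignment, was highest for the leading pair Hspb1 and Cryab (48.6%), followed by Cryab and Hspb6 (47.5%) and Hspb1 and Hspb6 (44.4%). Thus the gene with the lowest mean level in the set encodes a protein near those of the highest. Hspb7 was the most distant, at 22.1% to 27.8% with the other 6, while pairs without Hspb7 had 27.9% to 48.6%. The unrelated Bag3 had 18.1% to 28.4% with the 7 proteins. It is longer, at 577 residues, and leaves more room for matches, so its range is no baseline for Hspb7. Unc45a (944 residues) and Unc45b (929) were 55.4% identical.

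Genes of the same pathways were taken from 5 lists. Of the remaining small heat shock genes, Cryaa and Odf1 (a sperm tail protein) had 0 counts in both libraries and Hspb9 (a testis gene) had 0 and 3 counts. Hspb11, named with the family but known as a part of the intraflagellar transport machinery, had 28.47 and 25.99 TPM. Of the whole family, the 7 small heat shock genes of the set and Hspb11 reached 1 TPM in both libraries.

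The partners of Bag3 and Hspb8 were all detected, 11 of 11, with a median of 82.1 ± 3.47 TPM. Hspa8, the constitutive HSP70 to which Bag3 binds, was highest at 1878 and 1971 TPM, and Stub1, its ubiquitin ligase, had 160 and 177. The autophagy receptor Sqstm1 had 119 and 146, and Synpo2, which works with Bag3 at the Z-disc, had 28.9 and 34.5. Bag3 itself (15.5 and 15.1 TPM) was lower than every gene of this list except Bag4 (5.35 and 6.09), with no overlap of the libraries.

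The partners of the UNC-45 proteins were high, with 10 of 10 detected, a median of 174 ± 9.14 TPM, and 9 of them passed 100 TPM in each library. Hsp90ab1 led at 1048 and 1058 TPM and Hsp90aa1 had 613 and 528. Smyd1, the muscle methyltransferase that works with Unc45b and HSP90 in myosin assembly, had 121 and 101, near Unc45b at 128 and 163. In the list of clients, all 11 were detected with a median of 295 ± 24.9 TPM, led by Actc1, the cardiac actin. Desmin (Des), bound by Cryab, had 313 and 352 TPM, and Flnc, the muscle filamin bound by Hspb7 and Bag3, had 29.6 and 26.1.

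Heat shock factors and inducible heat shock genes were lower, with 7 of 10 detected and a median of 25.1 ± 1.01 TPM. Hsf1, the main stress factor, had 34.4 and 34.3 TPM, while Hsf4, the lens factor, had 1 count in either library. Hspa1b, a strongly stress-induced HSP70 gene, had 0.36 and 0.35 TPM and its near-identical copy Hspa1a 1.37 and 1.84, the split of reads between them being uncertain. Hspb1, which heat shock factors also activate, was at 610 and 604 TPM in the same libraries. The mitochondrial chaperonin gene Hspd1 was highest on this list at 329 and 367. Of the 46 genes of these 5 lists, 42 had enough counts for the comparison of the libraries. In the exact binomial test, 0 of them passed an adjusted p of 0.05 with a 2-fold difference (4.69% of all genes). Most of the 42 had at least as many counts as Hspb6, and among all such genes that share was only 0.264%. At any fold, 9 of the 42 were higher in replicate 1 and 14 in replicate 2 at an adjusted p under 0.05 (18.4% and 21.2% of all genes, not matched for depth). Cryaa, Odf1, Hspb9 and Hsf4 were not tested.

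**Figure D4:**
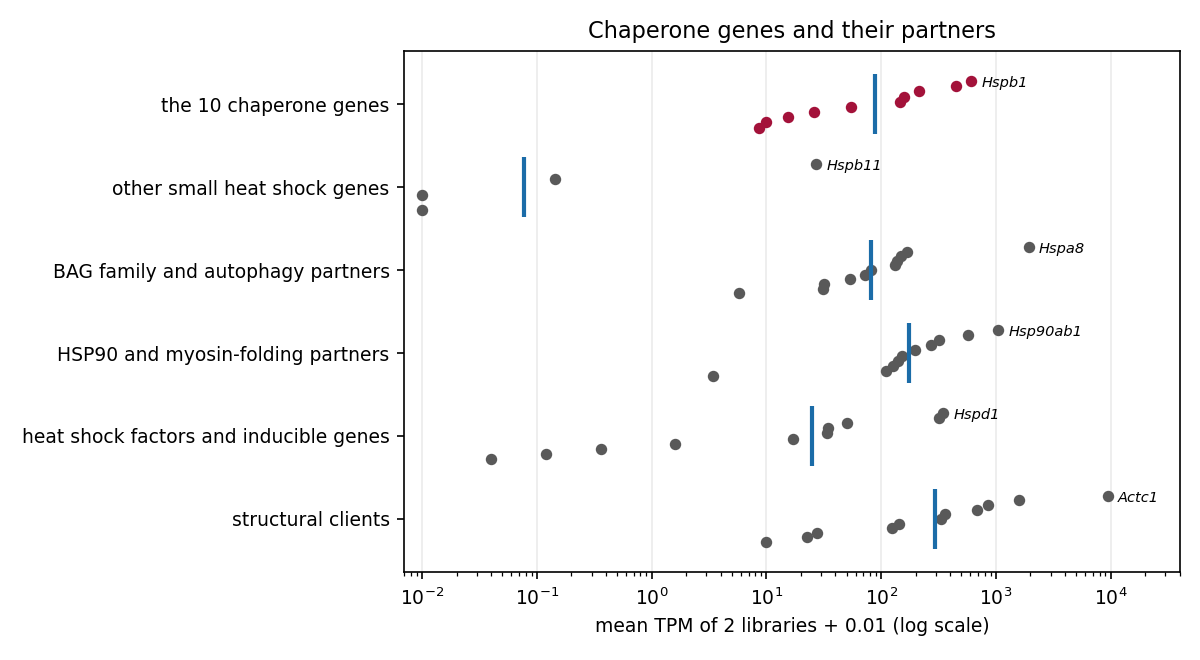
Mean TPM of the 2 libraries plus 0.01 (log axis) for the 10 chaperone genes (red) and 5 lists of related genes (grey), with the highest of each list named and a blue line at the list median. The chaperone genes (median 87.8 TPM) sit near the partners of Bag3 (82.1), below those of HSP90 (174) and the structural clients (295) and above the heat shock factors and inducible genes (25.1).

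Genes that overlap a member on the other strand could share its reads if the counting ignored strand. Unc45bos, antisense within Unc45b, had 17.4 and 8.02 counts, and Slfn5os, which covers its 3′ end, had 12.6 and 11.3, both far under the counts of Unc45b. Proser3 overlaps the 5′ end of Hspb6 by 122 bases and had 402 and 238 counts, a number close to those of Hspb6, and the only Hspb6 transcript that reaches it, Hspb6-203, had 12.8 and 25.6 counts.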

How the data were processed

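Total RNA of 2 heart samples, treated here as 2 pools, was sequenced. The authors deposited expected counts (estimated reads, not normalized) per gene and transcript, TPM (over all rows, spike-in and tRNA rows included) and the percent of the TPM of a gene in each transcript, per the file headers. The texts deposited with them name mm10 and annotation M4. For the aligner, quantifier and strand setting, the sources used here give nothing. Symbols and coordinates came from GENCODE M21 by identifier (42462 of 43346 mouse genes matched). Promoter sequences are RefSeq, GRCm38.p6.

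From these tables, the mean and SD of TPM over 2 libraries, log2 ratios of TPM and ranks were computed. Counts were rounded to whole numbers, libraries were scaled with TMM (edgeR 4.0.16, R 4.3.3), and genes with a summed count of 20 or more were compared by an exact two-sided binomial test, called at an adjusted p under 0.05 and 2-fold, with 0.5 added to each count for the ratio. The test was checked on simulated data that held counting error alone, so the check does not cover variation between pools. Intervals (95%, exact Clopper-Pearson on the share of counts) and the floor of 3 counts cover counting error only. Proteins were aligned with Biopython 1.88 (BLOSUM62, free end gaps). Python 3.11.15, numpy 2.4.6, pandas 2.3.3 and scipy 1.17.1 were used.

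The members are named throughout, and other genes only from the lists, by highest or lowest level or as a textbook partner, or where stated as chosen after their values were seen. The members and lists were chosen with earlier results of these data known. With 2 libraries of 1 group no genes could be named for a like pattern. Other settings for length, posterior means, scaling, filter and library were tried.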

Additional observations from a re-analysis of the deposited data

How the results depend on the processing

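All 10 genes stayed detected at 0.5 and 5 TPM, with posterior means, with full gene length and in either library, and the count of neighbours apart was 6 with posterior means and with full length. In either library alone, 8 of 9 neighbouring pairs kept the reported order, and calls of neighbours could not be made with 1 value a gene. The median percentile among protein-coding genes was 90.95, and 92.85 with genes without a count included. As ratios of expected counts without length, the log2 ratios were 4.29 for Unc45b to Unc45a, 1.62 for Cryab to Hspb2, -0.22 for Bag3 to Hspb8, -5.48 for Hspb6 to Hspb1 and 3.46 for Hspb7 to Hspb3. With 1 added to each TPM, Unc45b to Unc45a was 3.76 and Hspb6 to Hspb1 was -6.00 (-5.995), and with posterior means Unc45b to Unc45a was 3.78. No ratio changed sign under these settings. Genes called between the libraries numbered 779, and 777 with DESeq2 size factors, 787 with total counts, 761 with posterior mean counts and 1141 with no filter, with 0 of the 10 genes called each time. No paired analysis was possible because there is 1 group. The limits are 2 libraries, pools whose size is given for only 1 of them, and low counts for Hspb6 and Unc45a.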
